A study of Mus musculus with 6 samples.

Results

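Myofibroblasts and smooth muscle cells are the contractile cells among cells sorted as TSLP reporter-positive from the mouse intestinal lamina propria. They were picked by transcripts, as cells with UMIs (unique molecular identifiers, each marking 1 captured transcript) of at least 4 of the 7 genes Myh11, Actg2, Cnn1, Hhip, Des, Myocd and Npnt and with no UMI of Prox1, Ptprc, Rgs5 or Kcnj8, which mark lymphatic endothelium, leukocytes and pericytes. The rule found 499 members among 102534 cells, or 0.487%. Of the members, 344 came from the small intestine and 155 from the large bowel. The cells had been sorted as live tdTomato+ cells from Flare-TSLP mice, a C57BL/6 line in which loxP sites flank the last coding exons of Tslp and an IRES-tdTomato cassette follows it in the same locus. All mice carried this allele, there was no wild-type group, the line came from 1 embryonic stem cell clone, and the study pooled female and male mice of 8 to 12 weeks. Of the 6 single-cell libraries, 2 were made from proximal jejunum, 2 from distal ileum, and 1 each from cecum and large intestine. Cecum and large intestine are called the large bowel below. Each library pooled cells carrying 3 antibody barcodes (hashtags), which the sources used here do not pair with mice, so each library counted as 1 sample and p-values measure the spread between libraries. No marker used here separates myofibroblasts from smooth muscle, so both names stand for the members as a whole.

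Smooth muscle contracts when calcium and calmodulin activate myosin light chain kinase, and myocardin with serum response factor drives the genes of its contractile apparatus. In the gut wall, smooth muscle forms the muscularis mucosae, the strands that enter the villi, the outer muscle coat and the walls of vessels. Myofibroblasts lie beneath the epithelium, carry alpha smooth muscle actin and secrete matrix and signals that act on epithelial stem cells. Epithelial Hedgehog ligands maintain both lineages, and HHIP, encoded by Hhip, binds and restrains these ligands.

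The libraries held between 109675337 and 206827504 gene UMIs, the cells kept had a median of 6772 to 9413 UMIs per library, and barcodes with at most 100 UMIs, mostly free RNA, held 2.90% to 3.82% of the UMIs. Between 38 and 118 cell barcodes of kept cells occurred in both libraries of a pair. Members had a median of 9024 UMIs, against 7934 in Pdgfra fibroblasts (a Pdgfra UMI, at most 1 rule marker and none of the exclusion genes, Pecam1 or Epcam), 8523 in pericytes (at least 3 of 7 pericyte markers) and 6916 in lymphatic endothelial cells (Prox1 with Lyve1, Mmrn1 or Flt4). The pericyte markers were Rgs5, Kcnj8, Abcc9, Notch3, Cspg4, Higd1b and Ndufa4l2. The class called pericytes was mixed: 72.0% of its cells had a Pdgfra UMI and 36.1% a Myh11 UMI. The part of other stroma in its values, here and below, was not tested. Scrublet called 30 members doublets (6.01%), 51 members carried several hashtags (10.2%) and 94 carried none. In the cecum, 22.1% of members carried several hashtags, against 5.56% to 12.8% in the other libraries. One member of proximal replicate 1 held 92.2% of the 5221 Igkc UMIs counted in the members there, and immunoglobulin genes are therefore not read as genes of these cells.

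The share of members per library ranged from 0.169% to 0.746%. It was 0.746% in proximal replicate 1 (129 of 17282 cells, exact 95% interval 0.624 to 0.886), 0.396% in proximal replicate 2 (71 of 17924 cells, 0.309 to 0.499), 0.169% in distal replicate 1 (36 of 21299 cells, 0.118 to 0.234) and 0.531% in distal replicate 2 (108 of 20327 cells, 0.436 to 0.641). In the cecum it was 0.552% (77 of 13951 cells, 0.436 to 0.689) and in the large intestine 0.664% (78 of 11751 cells, 0.525 to 0.828). These intervals cover counting error only, and neither those of the proximal replicates nor those of the distal replicates met. Large bowel libraries had 0.608% ± 0.0791 members (SD, n = 2) and small intestinal ones 0.461% ± 0.242 (n = 4), and the groups overlapped (exact permutation test, two-sided p = 0.533; the smallest p possible is 0.133). Reading cells with at least 3 markers, the shares were 1.37% ± 0.0552 (n = 2) and 0.606% ± 0.301 (n = 4) and did not overlap (exact permutation test, two-sided p = 0.133). Nor did they overlap without proximal replicate 1 (difference 0.242 percentage points, exact permutation test, two-sided p = 0.200, the smallest possible). The distal share of 0.350% ± 0.256 and the proximal share of 0.571% ± 0.248 (n = 2 each) did not separate either (exact permutation test, two-sided p = 0.667; the smallest p possible is 0.333). The jejunal and ileal libraries numbered 1, the cecum and the large intestine shared 1 set of hashtags, and the libraries numbered 2 carried a second set. Within the first set the distal share lay below the proximal one, and within the second set above it. The rule did not weigh equally on the bowels. Its marker Npnt had a UMI in 23.4% of cecal and 5.13% of large intestinal members, against 81.7% to 94.4% in the small intestinal libraries. At least 4 markers were thus harder to reach in the large bowel, and the part of this in the shares was not tested. How many of these cells a tissue holds cannot be told from the share of a sort.

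**Figure D1:**
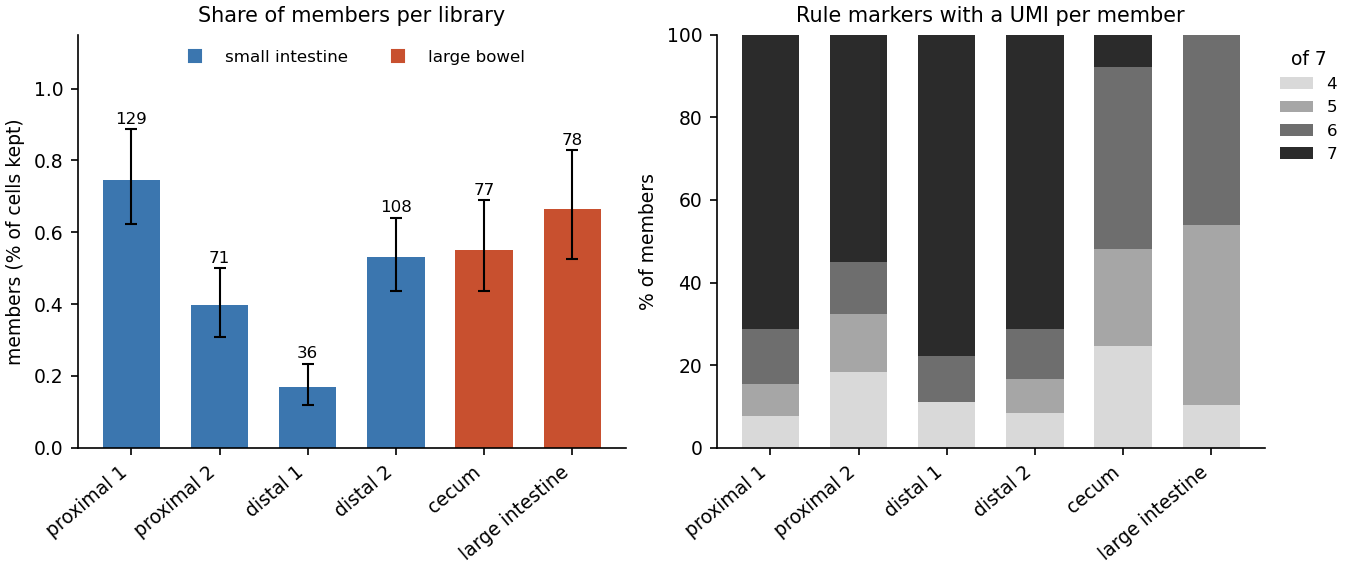
Left, members as a percent of the cells kept in each library, with exact 95% binomial intervals as error bars and the number of members above each bar. Right, the members of each library split by how many of the 7 rule markers had a UMI; all 7 were found in 68.6% of the 344 small intestinal and 3.87% of the 155 large bowel members.

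The exclusion genes removed most cells with at least 4 rule markers. Of 1824 cells with at least 4 rule markers, 1325 had a UMI of an exclusion gene, and in 1217 of them this was Rgs5, a regulator of G-protein signaling that marks pericytes. Rgs5 had a UMI in 47793 of all 102534 cells, and its level in free RNA ranged from 49.0 CPM (UMIs per 1e6 gene UMIs) in the cecum to 771 CPM in distal replicate 2. The members therefore stand for the part of the contractile cells in which no Rgs5 was caught, and the part of free Rgs5 RNA in the shares above was not tested. Without the exclusion genes the direction between the bowels turned, to 0.436 percentage points lower in the large bowel (exact permutation test, two-sided p = 0.667). At the edge of the rule, the 302 cells with 3 markers had 212 CPM of Myh11 and 90.4% of them had a Pdgfra UMI. The 63 members with 4 markers had 1253 CPM of Myh11 and 65.1% had a Pdgfra UMI. Among the 242 members with all 7 markers, Myh11 was at 5183 CPM and 12.8% had a Pdgfra UMI. The 4-marker members thus lay between the 3-marker cells and the members with all 7 in both values.

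The 7 rule markers chose the members, so their levels are given as a description. Myh11, the smooth muscle myosin heavy chain (GRCm39, chr16:14012399-14109236), was at 4506, 4447, 4091 and 5008 CPM in the small intestinal libraries, 3353 CPM in the cecum and 3411 CPM in the large intestine, and 496 of the 499 members had a UMI. The small intestinal values stand in the order proximal replicates 1 and 2, then distal replicates 1 and 2, here and below. Actg2, enteric smooth muscle actin, was at 1668, 1638, 1515 and 1476 CPM in the small intestinal libraries, 1449.7 CPM in the cecum and 1268 CPM in the large intestine. Calponin (Cnn1) was at 833, 885, 1015 and 893 CPM in the small intestinal libraries, 661 CPM in the cecum and 669 CPM in the large intestine. Myocardin (Myocd), the coactivator of serum response factor that sets the smooth muscle program, was at 779.9, 642, 834 and 812 CPM in the small intestinal libraries, 545 CPM in the cecum and 541 CPM in the large intestine. Hhip, Des and Npnt varied more and are described with the regions.

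Acta2, Tagln and Tpm1, genes of the contractile apparatus that the rule did not use, were high in the members of every library. Acta2, alpha smooth muscle actin, was at 8425 ± 1424 CPM in members, 189.9 ± 268 in fibroblasts, 1368 ± 636 in pericytes and 110.0 ± 105 in lymphatic endothelial cells (SD, n = 6 libraries). Tagln, the actin-binding protein transgelin, was at 6586 ± 742 CPM in members, 85.4 ± 120.2 in fibroblasts, 1297 ± 623 in pericytes and 79.4 ± 64.3 in lymphatic endothelial cells. Tropomyosin (Tpm1) was at 3454 ± 223 CPM in members, 317 ± 141 in fibroblasts, 848 ± 253 in pericytes and 159 ± 50.3 in lymphatic endothelial cells. For all 3 genes the lowest library of members lay above the highest library of every other class. The 28 genes listed for the contractile apparatus summed to between 41185 and 43713 CPM in the members of a library and to between 2504 and 6669 CPM in fibroblasts. Among excitation genes, Kcnma1, the pore of the BK potassium channel, was at 935 ± 279.5 CPM in members, 16.8 ± 7.70 in fibroblasts, 69.5 ± 11.7 in pericytes and 29.5 ± 18.5 in lymphatic endothelial cells, and Cacna1c, the pore of the L-type calcium channel, was at 727 ± 280.2 CPM in members, 63.7 ± 48.3 in fibroblasts, 367 ± 203 in pericytes and 25.6 ± 18.8 in lymphatic endothelial cells. Prkg1, the cGMP-dependent kinase that relaxes smooth muscle, was at 1842 ± 495 CPM in members, 588 ± 278 in fibroblasts, 1717 ± 666 in pericytes and 852 ± 197 in lymphatic endothelial cells, so members and pericytes overlapped in it. No test was run between classes, because the rule chose the members in this contrast.

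Markers of other classes were found at varying levels. The fibroblast proteoglycan decorin (Dcn) was at 1765 ± 532 CPM in members, 9675 ± 3497 in fibroblasts, 5373 ± 1517 in pericytes and 2225 ± 739.6 in lymphatic endothelial cells. Adamdec1, a protease of lamina propria stroma, was at 3428 ± 1139 CPM in members, 2824 ± 1512 in fibroblasts, 2541 ± 939.9 in pericytes and 1091 ± 402 in lymphatic endothelial cells, so members and fibroblasts overlapped in it. Notch3, a receptor of mural cells, was at 64.3 ± 54.5 CPM in members, 4.08 ± 2.16 in fibroblasts, 317 ± 171 in pericytes and 7.60 ± 6.48 in lymphatic endothelial cells. Notch3 was among the genes that chose the pericytes, so its level there is a description only. The lymphatic list of 6 genes summed to 101 to 253 CPM in the small intestinal and 146 to 211 CPM in the large bowel members, and Prox1 was at 0 by the rule. The epithelial list of 13 genes reached at most 85.6 CPM, and the glial genes Sox10 and Gfap and the mesothelial genes Msln and Upk3b were at 0 in all members. Of the interstitial cell of Cajal list, 5 of 5 genes had UMIs, with a summed 10.4 to 76.7 CPM. Tslp had 2 UMIs in 2 of 499 members (0.401%, exact 95% interval 0.0486 to 1.44, counting error only), both in the cecum. For tdTomato there was 1 UMI in 1 member of the large intestine (0.200%, interval 0.00507 to 1.11). Over the 6 libraries a Tslp UMI was found in 0.681% to 2.91% of fibroblasts and 0.769% to 1.87% of lymphatic endothelial cells, and a tdTomato UMI in 1.31% to 6.25% and 1.34% to 3.74%. Among pericytes these shares were 1.42% to 3.86% for Tslp and 1.78% to 8.54% for tdTomato. The upper limit for tdTomato in the pooled members lay below each of these tdTomato shares, but it covers counting error only. With 36 to 129 members in a library, the members were not ranked within libraries. The sort had used the protein of the reporter, not its transcript. Glp2r, the receptor of the gut hormone GLP-2, had a UMI in 27.9% to 50% of members, 19.7% to 31.5% of fibroblasts and 23.0% to 34.5% of lymphatic endothelial cells in the small intestinal libraries, members being above fibroblasts in each of the 4. In the cecum these shares were 19.5%, 44.7% and 31.9%, and in the large intestine 23.1%, 57.4% and 38.6%.

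**Figure D2:**
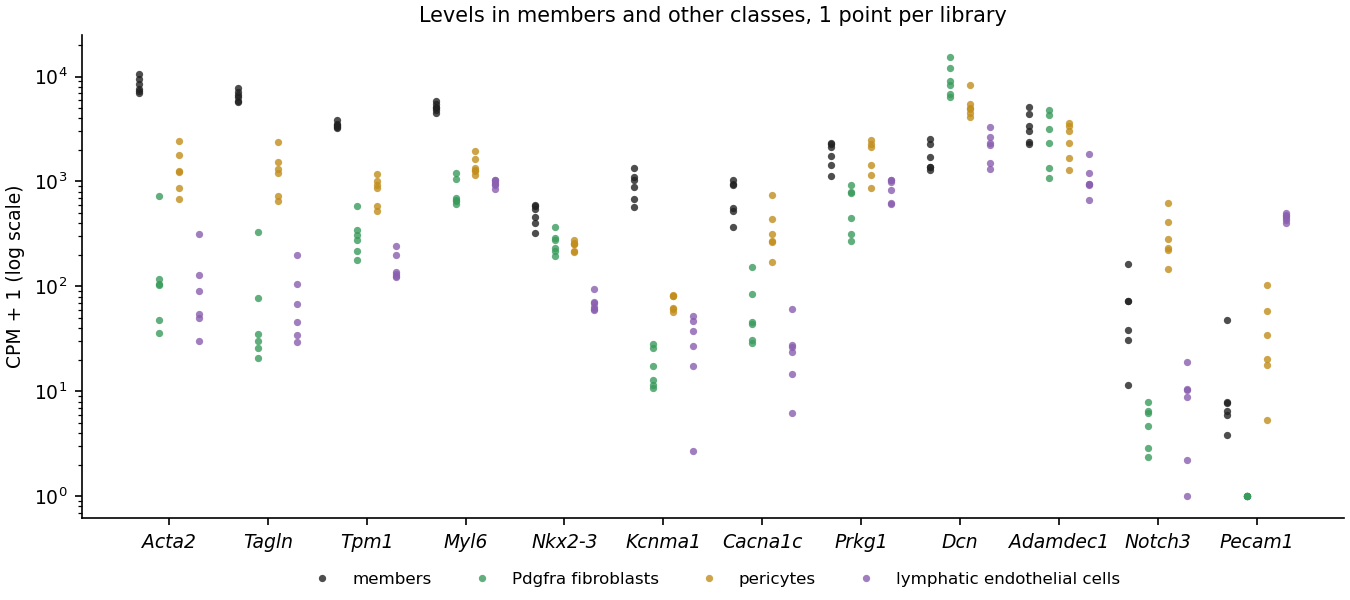
Level of 12 genes (CPM + 1, log scale) in members, fibroblasts, pericytes and lymphatic endothelial cells, with 1 point per library and class. Acta2, Tagln, Tpm1 and Kcnma1 of the members lie above all libraries of the other classes, Prkg1 overlaps with pericytes, and the mean of Dcn is highest in fibroblasts. Notch3 helped to choose the pericytes, and fibroblasts were chosen to have no Pecam1 UMI.

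Serum response factor, the partner of myocardin, binds the CArG box, so promoters of the members' contractile genes were searched for it on both strands, from 250 bases before to 50 bases after the start of each gene's Ensembl canonical transcript on GRCm39 (GENCODE annotation). The box was read as in the sites below, CC and GG around A or T only, with no mismatch. It was found in 3 of the 28 contractile promoters, 0 of the 7 rule marker promoters and 335 of all 21735 protein-coding promoters (1.54%). Boxes with a mismatch or outside this stretch were not searched, so a promoter without a match may still hold one. The 3 sites are shown because they are the only matches among contractile genes (Tagln, vinculin and the Z-disc protein gene Ldb3), as 30 bases read 5′ to 3′ along the gene with the box in capitals.
Tagln, chr9:45847449-45847478, minus strand: agggtcctgcCCATAAAAGGtttttcccgg
Vcl, chr14:20979229-20979258, plus strand: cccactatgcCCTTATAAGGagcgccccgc
Ldb3, chr14:34310664-34310693, minus strand: gcccagtgtagggttacagtCCATTTATGG
The boxes were centred 59 bases before the start of the canonical transcript of Tagln, 222 bases before that of Vcl and 45 bases after that of Ldb3. A match is a description of these letters and does not show binding.

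To ask how members differed along the gut, their UMIs were summed per library and the 2 large bowel libraries were set against the 4 small intestinal ones. Postn, Wnt4 and Rbp4 were higher and Rims1, Nog and Npnt lower in the large bowel, whereas Acta2 and Tagln did not pass the test. Of 9540 genes tested, 993 (10.4%) passed an adjusted p of 0.05 (edgeR quasi-likelihood test, Benjamini-Hochberg), 556 higher (5.83%) and 437 lower (4.58%). Restricted to the first hashtag set (2 small intestinal libraries), 522 genes passed. Of the genes named below as higher or lower, Synpo2, Ldb3, Cryab, Foxl1, Tcf21, Casq2, Kcnma1 and Mcam lost the call in that set. The large bowel libraries both carried that set, so bowel and set can be told apart only within it. The count fell to 382 without the cecum, 654 without the large intestine, 605 without proximal replicate 1 and 638 without distal replicate 2. Of the 993 genes, 973 did not overlap between the bowels, among them every called gene named here, and of all 9540 genes tested 3347 did not (35.1%).

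Of 27 contractile genes tested, 1 was higher and 3 lower (14.8%, against 10.4% of all genes tested), with a median log2 fold change of -0.14 against -0.0006 over all genes tested. Acta2 was at 7305, 8509.8, 7640.0 and 6956 CPM in the small intestinal libraries, 9475 CPM in the cecum and 10662 CPM in the large intestine, all large bowel values above the small intestinal ones, with a log2 fold change of 0.49 (SE 0.15, adjusted p = 0.0523), and passed in 7 of 16 other settings, among them members without UMIs of other classes. Tagln was at 5763, 6445, 7696 and 5865 CPM in the small intestinal libraries, 6609 CPM in the cecum and 7138 CPM in the large intestine and overlapped between the bowels (log2 fold change 0.18, SE 0.16, adjusted p = 0.519). Synm, an intermediate filament protein of muscle, was at 329, 234, 278 and 242 CPM in the small intestinal libraries, 33.4 CPM in the cecum and 63.7 CPM in the large intestine. It fell by 2.38 on the log2 scale (SE 0.27, adjusted p = 3.26e-04). Synpo2, an actin-binding Z-disc protein, was at 915, 929, 1039 and 1185 CPM in the small intestinal libraries, 541 CPM in the cecum and 461 CPM in the large intestine, a log2 fold change of -0.93 (SE 0.18, adjusted p = 0.00858), and lost the call without the large intestine and in the first hashtag set. The Z-disc gene Ldb3 (log2 fold change -0.97, SE 0.26) and the chaperone Cryab (log2 fold change 0.81, SE 0.22) lost the call in most settings tried.

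Of 17 transcription factors of muscle and gut mesenchyme tested, 3 were higher and 2 lower (29.4%, against 10.4% of all genes tested), with a median log2 fold change of -0.16. Nkx2-3, a homeobox factor of gut mesenchyme, was at 582, 541, 598 and 457 CPM in the small intestinal libraries, 401 CPM in the cecum and 323 CPM in the large intestine (log2 fold change -0.50, SE 0.19, adjusted p = 0.119). Foxl1, a factor of subepithelial stroma (log2 fold change 1.13, SE 0.27), Tcf21 (log2 fold change 1.22, SE 0.28) and Id3 (log2 fold change 0.85, SE 0.16) passed as higher, and Mef2a (log2 fold change -0.98, SE 0.21) and Foxf2 (log2 fold change -0.95, SE 0.22) as lower. Each of these 5 lost the call in at least 1 of 16 settings tried, Mef2a and Id3 among those without the cecum.

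Rule markers are read here in cells chosen without them, by 4 of the other 6 markers, an alternative added after the data were seen. In members chosen by all 7 markers, Npnt, Des and Hhip passed as lower too. They count among the calls of that test and of the test against fibroblasts, although they helped to choose the cells. Npnt, which encodes nephronectin, a basement membrane ligand of integrin alpha8 beta1, was at 2942, 1829, 3421 and 2412 CPM in the small intestinal libraries, 32.4 CPM in the cecum and 14.0 CPM in the large intestine. Its log2 fold change was -6.79 (SE 0.40, adjusted p = 1.26e-06). Desmin (Des), the muscle intermediate filament, was at 1323, 1267, 1504 and 1138 CPM in the small intestinal libraries, 311 CPM in the cecum and 219 CPM in the large intestine, a log2 fold change of -2.22 (SE 0.22, adjusted p = 1.17e-04). Hhip was at 6541, 4169, 4694 and 4704 CPM in the small intestinal libraries, 1817 CPM in the cecum and 1979 CPM in the large intestine, a log2 fold change of -1.32 (SE 0.20, adjusted p = 0.00211). For all 3 genes the bowels did not overlap. Myocd (log2 fold change -0.50, SE 0.17, adjusted p = 0.0865), Cnn1 (log2 fold change -0.37, SE 0.16, adjusted p = 0.175), Myh11 (log2 fold change -0.26, SE 0.16, adjusted p = 0.319) and Actg2 (log2 fold change -0.04, SE 0.17, adjusted p = 0.916) did not pass the test. Npnt was thus near 0 in the large bowel, where 3.87% of members held all 7 markers. Members there were therefore chosen mostly by the other 6 markers, unlike those of the small intestine.

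Excitation genes shifted in both directions. Of 28 tested, 4 were higher and 8 lower (42.9%, against 10.4% of all genes tested), with a median log2 fold change of -0.47. The ryanodine receptor Ryr2, a calcium release channel, was at 97.5, 153, 108 and 164 CPM in the small intestinal libraries, 16.7 CPM in the cecum and 22.5 CPM in the large intestine and fell by 2.65 on the log2 scale (SE 0.31, adjusted p = 4.11e-04). Kcnmb4, a beta subunit of the BK channel, was at 32.2, 29.1, 76.5 and 38.8 CPM in the small intestinal libraries, 2.78 CPM in the cecum and 6.24 CPM in the large intestine (log2 fold change -2.97, SE 0.55, adjusted p = 0.00586), and lost the call without the cecum. Kcnma1 was at 1329, 892, 1029 and 1106 CPM in the small intestinal libraries, 569 CPM in the cecum and 687 CPM in the large intestine (log2 fold change -0.71, SE 0.19, adjusted p = 0.0375), and lost the call in 7 of 16 settings, among them the first hashtag set and each large bowel library left out. The groups did not overlap for these 3 genes. The gap junction gene Gja1, connexin 43, was higher, at 22.9, 25.6, 10.4 and 8.52 CPM in the small intestinal libraries, 59.8 CPM in the cecum and 76.2 CPM in the large intestine (log2 fold change 2.01, SE 0.34, adjusted p = 0.00393). Calsequestrin 2 (Casq2), a calcium buffer of the sarcoplasmic reticulum, rose as well (log2 fold change 1.67, SE 0.40), and lost the call without distal replicate 2, without the large intestine and in the first hashtag set, where its log2 fold change was 1.31. Among receptors for transmitters and hormones, 4 of 20 were higher and 7 lower (55%, against 10.4% of all genes tested). The muscarinic receptor gene Chrm3, through which acetylcholine contracts gut muscle, had 64 UMIs in small intestinal and 2 in large bowel members, a ratio of CPM of 14.4 (95% counting interval 3.82 to 121), and lost the call without the cecum. F2r, the thrombin receptor, was at 95.8, 77.9, 125 and 123 CPM in the small intestinal libraries, 232 CPM in the cecum and 387 CPM in the large intestine, a log2 fold change of 1.66 (SE 0.24, adjusted p = 0.00155). Glp2r was at 94.1, 74.4, 143 and 69.1 CPM in the small intestinal libraries, 34.8 CPM in the cecum and 42.5 CPM in the large intestine, a log2 fold change of -1.12 (SE 0.30, adjusted p = 0.0356), and lost the call without proximal replicate 1, the cecum or the large intestine.

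Of 32 secreted signals of the stem cell niche tested, 9 were higher and 2 lower in the large bowel (34.4%, against 10.4% of all genes tested). In the same members 7 of 10 fibroblast markers were higher, Pdgfra among them, as given with the matrix genes. Wnt4, a WNT ligand, was at 29.7, 39.5, 10.4 and 25.6 CPM in the small intestinal libraries, 223 CPM in the cecum and 98.7 CPM in the large intestine, a log2 fold change of 2.57 (SE 0.35, adjusted p = 0.00129). Wnt5b was at 3.39, 3.49, 3.48 and 4.73 CPM in the small intestinal libraries, 39.0 CPM in the cecum and 31.2 CPM in the large intestine (log2 fold change 3.23, SE 0.39), and Chrdl2, a BMP antagonist, at 2.54, 2.33, 0 and 3.79 CPM in the small intestinal libraries, 27.8 CPM in the cecum and 30.0 CPM in the large intestine (log2 fold change 3.47, SE 0.48). The BMP antagonist noggin (Nog) went the other way. It was at 42.4, 39.5, 55.6 and 55.8 CPM in the small intestinal libraries, 1.39 CPM in the cecum and 1.25 CPM in the large intestine, with 159 UMIs in small intestinal and 2 in large bowel members, a ratio of 35.7 (95% counting interval 9.72 to 297). Sfrp1, a secreted WNT inhibitor, was at 548, 502, 528 and 531 CPM in the small intestinal libraries, 296 CPM in the cecum and 244 CPM in the large intestine, a log2 fold change of -0.88 (SE 0.17, adjusted p = 0.00884), and lost the call without the large intestine. In members without a UMI of another class, Pdgfra included, Wnt4 (log2 fold change 3.797) and Chrdl2 (log2 fold change 3.77) passed, Wnt5b was too low to be tested and Sfrp1 lost the call. Of 9 Hedgehog pathway genes tested, 1 passed (11.1%, against 10.4% of all genes tested). This was the coreceptor Boc (log2 fold change -1.47, SE 0.35), which lost the call without the cecum or distal replicate 2. Ptch1, the Hedgehog receptor and target, was at 645, 580.3, 393 and 477 CPM in the small intestinal libraries, 836 CPM in the cecum and 657 CPM in the large intestine (log2 fold change 0.59, SE 0.21, adjusted p = 0.0947), and passed in 2 of 16 other settings.

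Matrix genes were higher in 11 and lower in 4 of 42 tested (35.7%, against 10.4% of all genes tested), with a median log2 fold change of 0.32. Periostin (Postn), a matricellular protein, was at 209, 159, 184 and 295 CPM in the small intestinal libraries, 2329 CPM in the cecum and 2138 CPM in the large intestine, a log2 fold change of 3.47 (SE 0.22, adjusted p = 1.00e-05). Fibroblasts held a mean of 275 CPM in the small intestine and 1458 CPM in the large bowel, and the difference between the classes missed the threshold (adjusted p = 0.0991 by edgeR), though it passed in 3 of 16 other settings, DESeq2 among them. Collagen type I (Col1a1) was at 610.4, 771, 660.4 and 898 CPM in the small intestinal libraries, 3724 CPM in the cecum and 1178 CPM in the large intestine, a log2 fold change of 1.84 (SE 0.34, adjusted p = 0.00586), and lost the call without the cecum. Col15a1 and Col4a5 also lost it there, Col15a1 in 3 and Col4a5 in 2 of 16 settings. Fibroblast markers moved in the same direction, 7 of 10 tested being higher and none lower (70%, against 10.4% of all genes tested). Their 12 genes summed to 4575 to 5780 CPM in small intestinal and 7053 to 9201 CPM in large bowel members. Dpt, a marker of adventitial fibroblasts, was at 105, 107, 177 and 128 CPM in the small intestinal libraries, 344 CPM in the cecum and 353 CPM in the large intestine (log2 fold change 1.57, SE 0.21, adjusted p = 0.00101). Reading only members without a UMI of another class, 706 genes passed in place of 993, and without cells carrying several hashtags 875 passed. The part of fibroblast RNA in the niche and matrix values was not tested.

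Immediate early and heat shock genes, which dissociation induces, were higher in 13 of 23 tested and lower in 1 (60.9%, against 10.4% of all genes tested), with a median log2 fold change of 0.84. Jun was at 1104, 764, 1018 and 856 CPM in the small intestinal libraries, 3125 CPM in the cecum and 2547 CPM in the large intestine (log2 fold change 1.69, SE 0.19, adjusted p = 2.52e-04) and Hspa1a, an inducible heat shock protein, at 557, 454, 268 and 399 CPM in the small intestinal libraries, 1388 CPM in the cecum and 1586 CPM in the large intestine (log2 fold change 1.89, SE 0.22). The 24 genes summed to 11881 to 14324 CPM in the small intestinal and 18340 to 24441 CPM in the large bowel members. In the test against fibroblasts 1 of 23 passed (4.35%, against 3.74% of all genes tested). Tissue handling and bowel cannot be told apart here.

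Positional genes separated the bowels. Of 25 genes tested on the list of Hox genes and their cofactors, 7 were higher and 9 lower, against 10.4% of all genes called. Hoxa10 had 0 UMIs in all 4 small intestinal libraries and was at 52.9 CPM in the cecum and 107 CPM in the large intestine, at least 92.0-fold higher over the group floor of 3 UMIs. Hoxa9, Hoxd11 and Hoxd10, with 0 UMIs in the small intestine as well, were at least 44.5-fold, 38.6-fold and 25.2-fold higher. Hoxb6 had 59 UMIs in small intestinal and 0 in large bowel members, at least 8.83-fold higher in the small intestine. Meis1, a Hox cofactor, was at 319.6, 251, 313 and 319.9 CPM in the small intestinal libraries, 114 CPM in the cecum and 124 CPM in the large intestine (log2 fold change -1.25, SE 0.19, adjusted p = 0.00232). Hox genes of higher number are known to be used further back along the body axis.

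**Figure D3:**
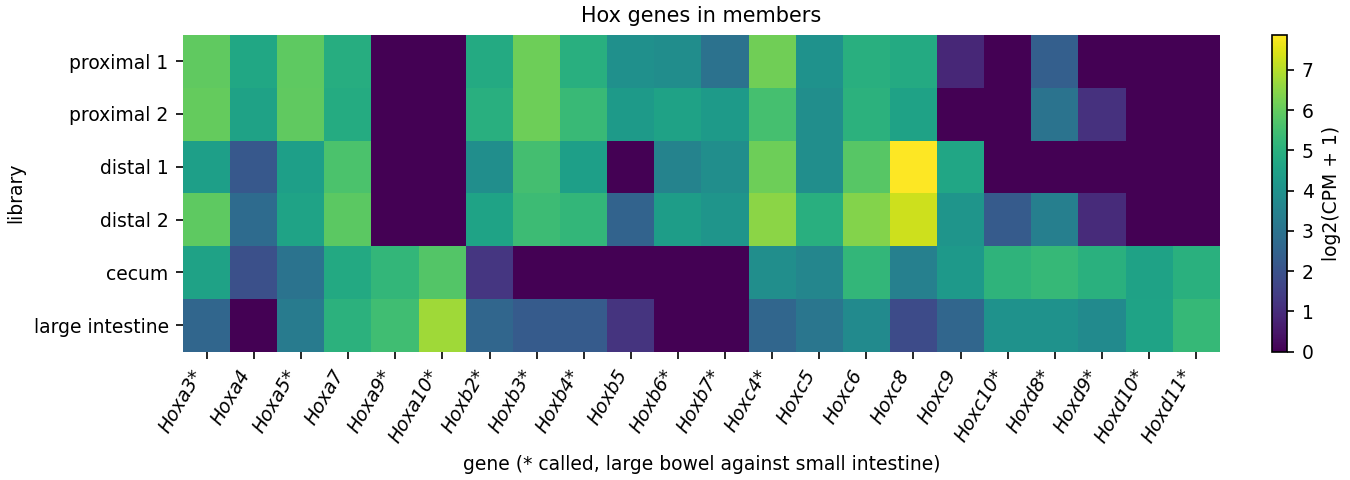
Hox genes with enough UMIs to be tested in members (columns) by library (rows), colored by log2(CPM + 1); an asterisk marks genes called between large bowel and small intestine. Hoxa9, Hoxa10, Hoxd10 and Hoxd11 are at 0 in the 4 small intestinal rows and detected in both large bowel rows, and Hoxc8 has its highest values in the 2 distal rows.

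Among the remaining largest changes, Rbp4, the plasma carrier of retinol, had 3 UMIs in small intestinal and 730 in large bowel members, at 0.848, 1.16, 0 and 0.947 CPM in the small intestinal libraries, 377 CPM in the cecum and 573 CPM in the large intestine, a ratio of 542 (95% counting interval 185 to 2634). Grip1, a receptor scaffold, and Eya4, a transcriptional coactivator, had 0 UMIs in the small intestine, and were at least 85.4-fold and 29.0-fold higher. Adam23, a catalytically inactive ADAM protein, was at 0.848, 3.49, 0 and 0.947 CPM in the small intestinal libraries, 37.6 CPM in the cecum and 107 CPM in the large intestine (log2 fold change 5.57, SE 0.58, adjusted p = 1.96e-04). Cntnap5a and Thsd7b were higher too. Rims1, known as a scaffold of the synaptic release site, was at 659.6, 541, 587 and 879 CPM in the small intestinal libraries, 5.57 CPM in the cecum and 5.00 CPM in the large intestine and fell by 6.86 on the log2 scale (SE 0.37, adjusted p = 2.08e-06). Prune2 was at 168, 117, 275 and 175 CPM in the small intestinal libraries, 0 CPM in the cecum and 0 CPM in the large intestine, at least 84.3-fold lower in the large bowel. Vwc2, a secreted BMP modulator, Greb1, Insyn2b, the leukotriene receptor gene Cysltr2 and the desmosomal gene Pkp2 had 0 UMIs in large bowel members and were at least 60.2-fold, 36.7-fold, 22.5-fold, 19.0-fold and 11.4-fold lower. The lymphatic genes Mmrn1 and Reln and the immunoglobulin genes Igha and Igkc fell as well, and lost the call without the cecum or without the large intestine. Of 4 lymphatic genes tested, 3 passed as lower (Mmrn1, Ccl21a and Reln) and 1, Pdpn, as higher. By limma-voom, Kcnmb4, Chrm3, Vwc2, Insyn2b, Cysltr2, Mmrn1, Igha and Igkc lost the call. Igkc made up 6653 to 21840 CPM of free RNA in the small intestinal and 370 to 1524 CPM in the large bowel libraries, and its part was not tested. Among pericyte and vascular muscle markers, Cspg4, encoding NG2, was at 97.5, 101, 97.3 and 101 CPM in the small intestinal libraries, 8.35 CPM in the cecum and 23.7 CPM in the large intestine (log2 fold change -2.51, SE 0.30, adjusted p = 0.000533) and Mcam, CD146, at 198, 267, 111 and 275 CPM in the small intestinal libraries, 39.0 CPM in the cecum and 88.7 CPM in the large intestine (log2 fold change -1.69, SE 0.36), while Abcc9, a potassium channel subunit, was at 4.24, 18.6, 0 and 4.73 CPM in the small intestinal libraries, 66.8 CPM in the cecum and 42.5 CPM in the large intestine (log2 fold change 2.89, SE 0.52). Mcam and Abcc9 lost the call without the cecum, and Mcam also in the first hashtag set.

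**Figure D4:**
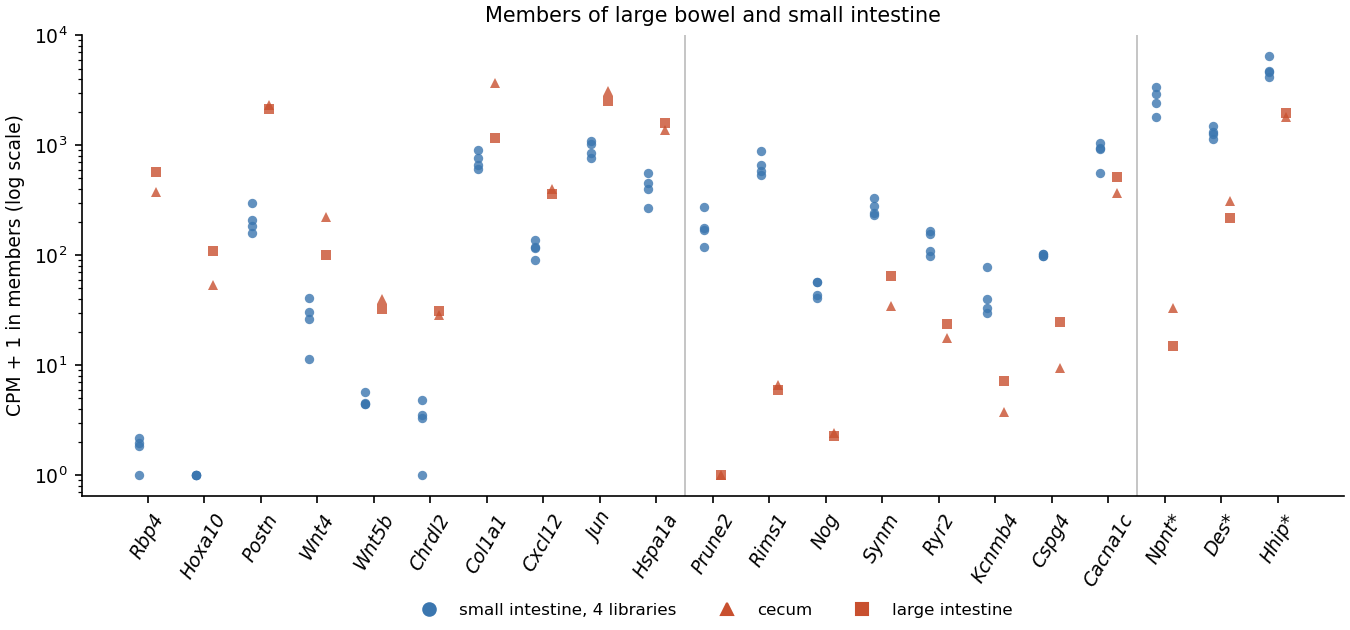
Levels of 21 genes in members (CPM + 1, log scale), 1 point per library, with circles for small intestine, triangles for cecum and squares for large intestine. Genes left of the first line are higher and those between the lines lower in the large bowel; genes with an asterisk are rule markers read in cells chosen by the other 6 markers, and the groups do not overlap for Npnt, Des or Hhip.

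Cecum and large intestine, with 1 library each, allow no test. Unc5c, a netrin receptor, had 0 UMIs in cecum and 250 in large intestine members, at least 74.8-fold higher there over a floor of 3 UMIs. Plcb1 (11.1 and 119 CPM), Isl1 (6.96 and 57.5 CPM), Ctnnd2 (20.9 and 141 CPM) and Inpp4b (36.2 and 231 CPM) were higher in the large intestine as well. Cardiac alpha actin (Actc1) was at 904 CPM in the cecum and 105 CPM in the large intestine. The chemokine genes Cxcl10 (394 and 21.2 CPM) and Cxcl1 (138 and 9.99 CPM) and Wfdc13 (71.0 and 7.49 CPM) were also higher in the cecum, and Elobl had 64 UMIs there and 0 in the large intestine, at least 23.8-fold higher. These are single libraries, and differences between them can come from the library.

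Within the small intestine, distal members expressed more Hoxc8, Piezo2 and Grem1 and less Ccl11, Sntg1 and Aldh1a3 than proximal members. Of 9354 genes tested, 25 (0.267%) passed, 13 higher (0.139%) and 12 lower (0.128%) distally (edgeR quasi-likelihood test), and 548 had an unadjusted p below 0.05. Without proximal replicate 1, none passed and 476 had an unadjusted p below 0.05. With distal replicates 1 or 2 left out, 146 and 151 genes passed, and with the replicate number, which goes with the hashtag set, as a block 153 passed. With 2 libraries against 2, all calls here are sensitive to 1 library.

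The positional gene Hoxc8 was at 27.1 and 22.1 CPM in the proximal and 233 and 153 CPM in the distal libraries, a log2 fold change of 2.90 (SE 0.29, adjusted p = 2.22e-04). Hoxc9 had 1 UMI in proximal and 24 in distal members, a ratio of 36.4 (95% counting interval 5.94 to 1498). Of 17 positional genes tested these 2 passed, both higher distally. Piezo2, a mechanically gated channel, was at 38.1 and 41.9 CPM in the proximal and 177 and 207 CPM in the distal libraries (log2 fold change 2.30, SE 0.24, adjusted p = 2.22e-04). Grem1, a BMP antagonist of the muscle beneath the crypts, was at 50.9 and 53.5 CPM in the proximal and 118 and 193 CPM in the distal libraries (log2 fold change 1.66, SE 0.26, adjusted p = 0.0110). Piezo2 lost the call in 4 of 13 and Grem1 in 5 of 12 other settings, both of them without proximal replicate 1. The WNT inhibitor Wif1 was at 3.39 and 9.303 CPM in the proximal and 69.5 and 33.1 CPM in the distal libraries (log2 fold change 2.89, SE 0.52) and Has1, a hyaluronan synthase, had 2 UMIs proximally and 26 distally, a ratio of 19.7 (95% counting interval 4.94 to 171). Edil3, Gfpt2, the thyroid hormone receptor gene Thrb and Il1rapl1 were higher distally as well, but lost the call in 6 of 9, 8 of 12, 6 of 10 and 6 of 11 other settings. Hoxc9 lost it in 7 of 11, Has1 in 5 of 8 and Wif1 in 5 of 12.

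Ccl11, the eosinophil chemokine eotaxin, was at 868 and 747 CPM in the proximal and 174 and 184 CPM in the distal libraries, a log2 fold change of -2.16 (SE 0.23, adjusted p = 2.22e-04). Sntg1, a syntrophin of the dystrophin complex, was at 672 and 479 CPM in the proximal and 129 and 120.2 CPM in the distal libraries (log2 fold change -2.21, SE 0.25). Aldh1a3, an enzyme of retinoic acid synthesis, was at 576 and 351 CPM in the proximal and 149 and 118 CPM in the distal libraries (log2 fold change -1.82, SE 0.27), and Ntf3, neurotrophin 3, at 208 and 260.5 CPM in the proximal and 101 and 99.4 CPM in the distal libraries (log2 fold change -1.21, SE 0.23). For these 4 genes both distal libraries lay below both proximal ones, and of all 9354 genes tested 3285 did not overlap between the regions (35.1%). Ntf3 lost the call in 9 of 13 other settings, limma-voom and DESeq2 among them. Frmd5 was at 212 and 115 CPM in the proximal and 3.48 and 26.5 CPM in the distal libraries and Vwc2 at 221 and 95.4 CPM in the proximal and 38.2 and 45.4 CPM in the distal libraries. Flt1, a receptor of blood endothelium, had 70 UMIs in proximal and 2 in distal members and Cxcl15 had 74 and 3, and Igkc, Jchain and Igha were higher proximally, where 1 cell of proximal replicate 1 carried most of the Igkc and Jchain UMIs. None of the 27 contractile, 28 excitation, 19 receptor, 9 Hedgehog or 42 matrix genes tested passed, where 0.267% of all 9354 genes did. Of these lists 0, 8, 4, 5 and 6 genes had an unadjusted p below 0.05, against 548 of all 9354. With so few calls over all genes, the absence of calls does not show that these genes were alike in both regions.

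Whether these regional differences were larger or smaller in members than in fibroblasts was tested in 1 model with library as a block. The difference of the large bowel effect, members minus fibroblasts, passed for 357 of 9540 genes (3.74%), 152 higher (1.59%) and 205 lower (2.15%). Of the 993 genes called in members, 159 also passed here (16.0% of those genes and 44.5% of the 357), 150 with the same sign. For the others no difference between the classes was shown. The fibroblasts were not split into subsets. The study found some fibroblast subsets mainly in the small intestine and others mainly in the large intestine or cecum. The part of such a change of subsets in the fibroblast values, here and below, was not tested. Without the large intestine 159 genes passed, without the cecum 201 and without proximal replicate 1 190.

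Kcnq5, a voltage-gated potassium channel, was at 591 CPM in small intestinal and 6.24 CPM in large bowel members, against 3.36 and 10.5 CPM in fibroblasts, a log2 difference of -8.15 (SE 0.43, adjusted p = 7.39e-06). Noggin was at 48.3 CPM in small intestinal and 1.32 CPM in large bowel members, against 0.331 and 1.16 CPM in fibroblasts (log2 difference -6.97, SE 0.80). Il1a was at 128 CPM in small intestinal and 3.12 CPM in large bowel members, against 0.0889 and 0.293 CPM in fibroblasts (log2 difference -7.09, SE 1.02), and lost the call when free RNA was subtracted. Synm was at 271 CPM in small intestinal and 48.5 CPM in large bowel members, against 37.6 and 39.8 CPM in fibroblasts (log2 difference -2.54, SE 0.27). Glp2r was at 95.034 CPM in small intestinal and 38.6 CPM in large bowel members, against 41.3 and 128 CPM in fibroblasts, a log2 difference of -2.85 (SE 0.20, adjusted p = 7.57e-05). The difference was positive for Itga8, Bmpr1b and Hmcn1. Itga8, the integrin alpha8 subunit, was at 185 CPM in small intestinal and 124 CPM in large bowel members, against 229 and 5.82 CPM in fibroblasts (log2 difference 4.77, SE 0.23), Bmpr1b, a BMP receptor, at 186 CPM in small intestinal and 175 CPM in large bowel members, against 34.9 and 2.22 CPM in fibroblasts (log2 difference 4.42, SE 0.61) and Hmcn1, a matrix protein, at 505 CPM in small intestinal and 131 CPM in large bowel members, against 795 and 22.0 CPM in fibroblasts (log2 difference 3.37, SE 0.25). Contractile genes were lower in 8 of 27 tested and higher in none (29.6%, against 3.74% of all genes tested). Tagln was at 6442 CPM in small intestinal and 6873 CPM in large bowel members, against 27.1 and 202 CPM in fibroblasts (log2 difference -2.44, SE 0.47) and lost the call without proximal replicate 1 or the large intestine. In the fibroblasts of the large intestine Acta2 was at 732 CPM, against 34.7 to 118 CPM in those of the other libraries, and free RNA there held 1095 CPM of it against 128 to 364. The part of free muscle RNA in this difference was not tested; with 10% of each sum subtracted along the free RNA, 262 genes passed.

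Members were split by Hhip, a rule gene, into 429 cells with and 70 without a Hhip UMI, at a median of 9024 and 9013 UMIs. Cells without Hhip had to hold at least 4 of the other 6 markers and cells with Hhip only 3 of them, so the arms were chosen differently. The cells without Hhip carried markers of vascular muscle and pericytes, and 4 of 9 Hedgehog pathway genes were higher in those with Hhip. A Pdgfra UMI was found in 21.9% of cells with and 31.4% of cells without Hhip over all libraries, but the order turned in the cecum (35.3% with and 11.1% without) and in proximal replicate 2 (29.4% with and 25% without). Only 1 library held 20 cells of both kinds, so, in a change made after the data were seen, the 5 libraries with at least 8 of both were used, which left out distal replicate 1 with 33 and 3 cells. Of 8516 genes tested with library as a block, 825 (9.69%) passed (edgeR quasi-likelihood test), 379 higher (4.45%) and 446 lower (5.24%) in cells with Hhip. The split was 330 to 616 by limma-voom, 185 to 402 by DESeq2 and 660 to 476 without a filter on low counts. Rule markers count among the genes tested and called, Hhip, Npnt, Actg2 and Cnn1 among them, although they helped to choose or split the cells. They were left out of the list counts below, for which 9.69% is the share over all genes. Reading only cells without UMIs of other classes, 378 genes passed. That setting also lost distal replicate 2 and the large intestine, which then held 7 and 6 cells without Hhip. The 2 changes cannot be told apart in this count. Without proximal replicate 2, 466 genes passed. With at least 4 of the other 6 markers required of both kinds, a setting added after the data were seen that kept 399 of the 429 cells with Hhip, 870 of 7625 genes passed, among them 793 of the 825 in the same direction, and 4 of 9 Hedgehog pathway genes were again higher and 9 of 10 pericyte and vascular muscle markers lower.

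Of the 10 pericyte and vascular muscle markers tested, 9 were lower in cells with Hhip and none higher, with a median log2 fold change of -3.70. Notch3 was at 4.46 ± 4.69 CPM with and 481 ± 182 CPM without a Hhip UMI (mean and SD over the 5 libraries, as below), with a log2 fold change of -6.78 (SE 0.41, adjusted p = 5.52e-08). Rgs4, a G-protein regulator, was at 1.36 ± 2.04 CPM with and 211 ± 83.9 CPM without a Hhip UMI (log2 fold change -7.19, SE 0.49). Gja4, connexin 37 of vessel walls, had 3 UMIs with and 78 without Hhip. Ndufa4l2, a mitochondrial protein of pericytes, was at 6.27 ± 12.0 CPM with and 99.97 ± 38.9 CPM without a Hhip UMI. Phospholamban (Pln), which restrains the calcium pump, had 1 UMI with and 362 without Hhip, a ratio of 2303 (95% counting interval 411 to 91208). Kcnab1, a potassium channel beta subunit, was at 7.49 ± 7.31 CPM with and 1159 ± 657 CPM without a Hhip UMI (log2 fold change -7.20, SE 0.50). The Notch target Heyl was at 1.14 ± 1.27 CPM with and 94.995 ± 46.8 CPM without a Hhip UMI and the muscle factor Mef2c at 107 ± 33.7 CPM with and 827 ± 312 CPM without a Hhip UMI (log2 fold change -2.98, SE 0.26). Elastin (Eln), the elastic matrix of arteries, was at 101 ± 48.0 CPM with and 843 ± 269 CPM without a Hhip UMI (log2 fold change -3.12, SE 0.26). All of these moved the same way in 5 of 5 libraries, as did 1524 of all 8516 genes tested (17.9%). Adra1a, an alpha1 adrenergic receptor, had 1 UMI with and 111 without Hhip. Col19a1, Nrip2, Dgkg, the dopamine receptor gene Drd1, the olfactory receptor gene Or51e1 and Susd5 had 0 UMIs with Hhip, and were at least 284-fold, 146-fold, 140.0-fold, 102-fold, 82.7-fold and 86.9-fold higher without it. Map3k7cl and Slc38a11 had 1 UMI each with Hhip and 169 and 106 without.

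Cells with Hhip were higher in 4 of 9 Hedgehog pathway genes tested and lower in none. Ptch1 was at 680.4 ± 138 CPM with and 356 ± 69.7 CPM without a Hhip UMI (log2 fold change 0.90, SE 0.18), the coreceptor Gas1 at 189 ± 75.2 CPM with and 39.6 ± 30.6 CPM without a Hhip UMI (log2 fold change 2.23, SE 0.36), Boc at 71.7 ± 37.3 CPM with and 30.3 ± 27.1 CPM without a Hhip UMI (log2 fold change 1.19, SE 0.33) and the transcription factor Gli1 at 53.6 ± 7.46 CPM with and 16.8 ± 16.7 CPM without a Hhip UMI (log2 fold change 1.61, SE 0.47). Boc and Gli1 lost the call in most settings tried, Ptch1 and Gas1 in 1 each. The WNT ligand Wnt5a was at 179 ± 84.3 CPM with and 36.5 ± 39.9 CPM without a Hhip UMI (log2 fold change 2.40, SE 0.46), the growth factor Igf1 at 752 ± 368 CPM with and 210.1 ± 139 CPM without a Hhip UMI (log2 fold change 1.92, SE 0.35), and Foxf2, a Hedgehog-responsive factor of gut mesenchyme, at 175 ± 69.9 CPM with and 31.4 ± 12.1 CPM without a Hhip UMI (log2 fold change 2.54, SE 0.35). The calcium channel subunit Cacna2d3, Rarres1, the ectonucleotidase Nt5e, Nog, Ch25h, Bean1 and Ankrd63 had 0 UMIs without Hhip and were at least 30.5-fold, 12.1-fold, 9.96-fold, 7.60-fold, 5.55-fold, 5.34-fold and 4.24-fold higher with it. Col23a1, a transmembrane collagen, was at 978 ± 868 CPM with and 38.5 ± 28.3 CPM without a Hhip UMI (log2 fold change 4.86, SE 0.74). Nmur2, a receptor of neuromedin, and Grik4, a kainate receptor subunit, had 1 UMI each without Hhip and 405 and 200 with it. Nog lost the call in 3 of 15, Ankrd63 in 3 of 10, Bean1 in 2 of 13 and Grik4 in 2 of 15 other settings, and Cacna2d3, Nmur2, Wnt5a and Igf1 in 1 each.

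The contractile list split, with 5 of 27 higher and 6 lower in cells with Hhip, and the excitation list likewise, with 6 of 28 higher and 11 lower. The muscle gene Mustn1 was at 442 ± 97.0 CPM with and 1190.5 ± 421 CPM without a Hhip UMI (log2 fold change -1.40, SE 0.16). Rule markers helped to choose the cells, so their levels are given as a description and their test results are not read. Actg2 was at 1677 ± 259.5 CPM with and 455 ± 110.2 CPM without a Hhip UMI, Cnn1 at 871 ± 183 CPM with and 339 ± 156 CPM without a Hhip UMI and Npnt at 1612 ± 1489 CPM with and 112 ± 66.3 CPM without a Hhip UMI. Myh11 was at 4154 ± 733 CPM with and 4109.5 ± 764 CPM without a Hhip UMI and Myocd at 669.5 ± 141 CPM with and 652 ± 81.2 CPM without a Hhip UMI. Des was at 1377 CPM with and 648 CPM without Hhip in proximal replicate 1, 1279 and 722 CPM in proximal replicate 2, and 1217 and 385 CPM in distal replicate 2. In the cecum it was at 285 CPM with and 422 CPM without Hhip and in the large intestine at 113 and 1134 CPM, so the order differed between the bowels. Receptor genes were higher in 5 and lower in 3 of 20 tested, niche genes higher in 4 and lower in 2 of 33, and matrix genes higher in 6 and lower in 6 of 42. Dissociation genes were lower in 9 of 23 and higher in 1 in cells with Hhip. None of the 21 positional genes tested passed, against 9.69% of all genes tested, and 3 were below an unadjusted p of 0.05, against 1716 of all 8516.

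**Figure D5:**
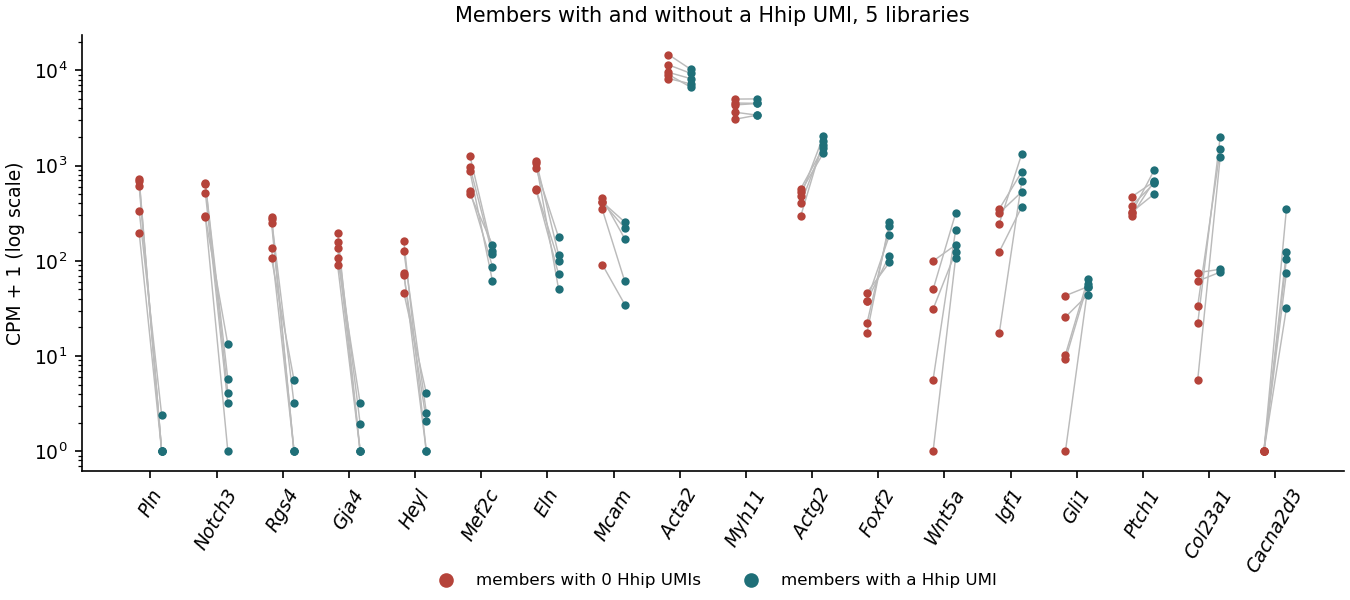
Levels of 18 genes (CPM + 1, log scale) in members without (left point) and with (right point) a Hhip UMI; lines join the values of each of 5 libraries. Pln, Notch3, Rgs4, Gja4 and Heyl are higher without Hhip in 5 of 5 libraries, Ptch1, Gli1, Igf1 and Wnt5a are higher with it, and Myh11 (a rule gene) lies at the same level in both. Of all 8516 genes tested, 1524 (17.9%) moved the same way in every library.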

How the data were processed

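The authors aligned reads of 3′ single-cell libraries to mm39 with tdTomato added (Cell Ranger 8.1.0 per the submitters' processing notes, 8.0.1 in the matrix header) and deposited raw UMI counts of every barcode, before doublet and ambient RNA removal. The study's limits per cell were applied (genes 1000 to 7500, UMIs 2500 to 40000, mitochondrial share below 10%). The study further removed clusters with too few tdTomato+ cells, a step that was not applied here. The members and gene lists were chosen with earlier results of these data known. UMIs of members were summed per library and tested with edgeR 4.0.16 (filterByExpr at 10, for the class comparison on member sums, TMM, glmQLFit and glmQLFTest, Benjamini-Hochberg over all genes); the SE is the fold change over the root of F. Shares were compared by exact permutation. Alternatives were limma-voom, DESeq2, filters, free RNA subtraction, doublet (Scrublet in scanpy 1.11.5) and hashtag removal, other rules and each library left out. Genes named are from the rule markers, exclusion genes, Tslp, tdTomato and Glp2r, up to 4 genes per list by level and by called change, up to 10 per direction and test by change without overlap, and 5 per direction between cecum and large intestine by CPM ratio (at least 50 UMIs). The 4 comparisons across genes were checked on simulated data. Cells were not split by mouse. Some genes that the rule names are not reported here.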

Additional observations from a re-analysis of the deposited data

Results flagged for a closer look

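The large bowel effect differed between members and fibroblasts in a test of the difference itself (edgeR, library as a block) for 357 genes. Among the genes named, the fitted log2 difference, members minus fibroblasts, was Thsd7b 11.99, Rbp4 5.41, Dlgap1 4.95, Itga8 4.77, Bmpr1b 4.42, Frem2 4.09, Snhg11 3.65, Prdm6 3.59, Hmcn1 3.37, Ptger2 2.88, Ryr2 2.71, P2rx1 2.84, Gja1 2.15, Wnt4 1.66 and Cxcl12 0.95 where members rose more or fell less, and Prune2 -14.62, Adra2c -14.03, Kcnq5 -8.15, Ddit4l -7.61, Il1a -7.09, Nog -6.97, Il1rl1 -6.13, Lgi3 -6.07, Chl1 -5.70, Glp2r -2.85, Synm -2.54, Hspb1 -3.66 and Tagln -2.44 where members fell more or rose less. Fitted values for Thsd7b, Prune2 and Adra2c rest on members with 0 UMIs in 1 bowel and are no bounds. Prdm6 turned to -4.22 without the large intestine. Cxcl12 lost the call in 10 of 16, Wnt4 in 9 of 16, Gja1 in 6 of 15, Thsd7b in 5 of 13, Snhg11 in 4 of 13, P2rx1 and Ryr2 in 3 of 16 and the remaining genes in 2 settings or fewer.

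In 4 of 66 groups of 4 small intestinal libraries, 1 library lay far from the others by Dixon's test, which flags about 1 group in 20 by chance. Proximal replicate 1 held 1948 CPM of Igha against a median of 111 CPM in the others, and 4426 CPM of Igkc against 170.3 CPM, with 92.2% of the Igkc UMIs in 1 cell. Distal replicate 2 held 0.947 CPM of Cntnap5a against 0 in the others, and 4.73 CPM of Wnt5b against 3.48 CPM.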

How the results depend on the processing

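Counts of genes that passed moved by over 1.5 times as follows. Between large bowel and small intestine (993), no filter on low counts gave 1655, the first hashtag set 522, and leaving out 1 library 382 to 1125. Between distal and proximal members (25), limma-voom gave 8, DESeq2 15, no filter 146, at least 5 markers 7, doublets removed 9, several hashtags removed 4, and leaving out 1 library 0 to 151. A replicate block gave 153 there; same-numbered libraries share a hashtag set and deviated with a correlation of 0.142 in members over 9354 genes and 0.546 in fibroblasts, but with 2 pairs the numbers were not taken as a pairing. For members against fibroblasts (357), no filter gave 885, no library block 110, and leaving out 1 library 159 to 309. For the Hhip split (825), no library block gave 435, no UMIs of other classes 378 (distal replicate 2 and the large intestine also dropped out there), and leaving out 1 library 466 to 828. The higher share of members in the large bowel turned to -0.436 percentage points without exclusion genes, and Cxcl10 turned to -1.05 with cells thinned to 2500 UMIs before the Hhip split; the cause was not tested. Against fibroblasts, Prdm6 ranged from -4.22 to 4.11 when 1 library was left out. In the remaining settings directions held for the genes named with a test. A Hhip split at 20 cells could not be fitted.

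In simulated data, 2-fold and 4-fold changes of 200 genes were recovered at 32.0% and 85.0% between the bowels (9540 genes), 23.5% and 80.0% between distal and proximal members (9354), 15.0% and 86.5% against fibroblasts (9540) and 22.5% and 81.0% in the Hhip split (8516). Of the calls at 2-fold and 4-fold, 5.88% and 8.60%, 9.62% and 2.44%, 16.7% and 6.49%, and 18.2% and 2.41% were false, in the same order, against a threshold of 0.05. The simulation gave each unchanged gene the same mean level in all sums and no library effect. Members and fibroblasts, and the cells with and without Hhip, differ in level in the data. The rates against fibroblasts and in the Hhip split may therefore not hold for the data.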
